A study of Mus musculus with 6 samples.

Results

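The genes described here make bile acids, carry them across the hepatocyte membrane or restrain their synthesis. They were chosen by name: Cyp7a1, Cyp7b1, Cyp8b1 and Cyp27a1, which encode enzymes of synthesis, Nr0b2, which encodes a repressor of synthesis, and Abcc2, Abcb11 and Slc10a1, which encode transporters. Every probe set whose gene symbol in the array's annotation was one of these 8 names was taken. That gave 9 probe sets for 6 of the 8 genes, among 8251 genes with a probe set of their own. Cyp27a1 and Abcb11 were not analysed here, as no probe set carried their symbols. All 6 genes were among the 4844 genes kept because their mean level over the arrays reached the floor described below.

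Liver RNA was measured on 6 one-colour Affymetrix arrays, 1 for each of 3 genotypes at each of 2 circadian times. The groups were Clock mutant mice, Cry-deficient mice and wild-type mice, all male and 8 to 10 weeks old, at circadian time 14 (CT14) and circadian time 2 (CT02). Circadian time starts with the subjective day, which puts CT14 in the early subjective night and CT02 in the early subjective day. The labels describe the Cry-deficient CT02 animals as double knockouts of Cry1 and Cry2, the CT14 animals only as Cry deficient, and a C57BL/6 background for the wild type alone. The allele of the Clock mutant, the light conditions and any pooling of animals were not stated in the sources used here. With 1 array per group there is no spread between replicates, no test was made, and every ratio compares 2 arrays.

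Bile acids are made from cholesterol in hepatocytes. Cyp7a1 catalyses the rate-limiting first step of the classic pathway, Cyp8b1 adds the hydroxyl group that directs the product to cholic acid, and Cyp7b1 acts on oxysterols in the alternative pathway. Returning bile acids activate the nuclear receptor FXR, encoded by Nr1h4, which induces Nr0b2. Nr0b2 encodes SHP, a nuclear receptor without a DNA-binding domain that represses Cyp7a1 and Cyp8b1 through LRH-1 (Nr5a2) and HNF4-alpha (Hnf4a). Slc10a1 encodes NTCP, the sodium-dependent carrier that takes up bile acids from the blood, and Abcc2 encodes MRP2, the canalicular pump for bilirubin glucuronides and other conjugates. Bile acid synthesis in rodents is known to follow a daily cycle.

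Levels are given in scaled units, which are the deposited intensities after each array was divided by its median ratio to the mean of the arrays. The floor of 606 units is the median of all scaled values. Where 1 of the 2 values of a ratio lay at or under the floor, the ratio was computed against the floor and is given as a bound. A ratio is a difference of log2 levels of the same probe set, and no level is compared between genes.

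Nr0b2, Cyp7a1 and Abcc2 differed between the arrays by more than most genes did, each in a different place. Nr0b2 was highest on the wild-type and Clock mutant CT02 arrays, lowest on the wild-type CT14 array and low on both Cry-labelled arrays. Cyp7a1 was at the bottom of the scale on the Clock mutant CT02 array and measurable on the other 5. Abcc2 was low on both Clock mutant arrays and level on the other 4. Cyp8b1 varied less, and Cyp7b1 and Slc10a1 stayed within 1.40-fold and 1.17-fold over the 6 arrays.

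**Figure D1:**
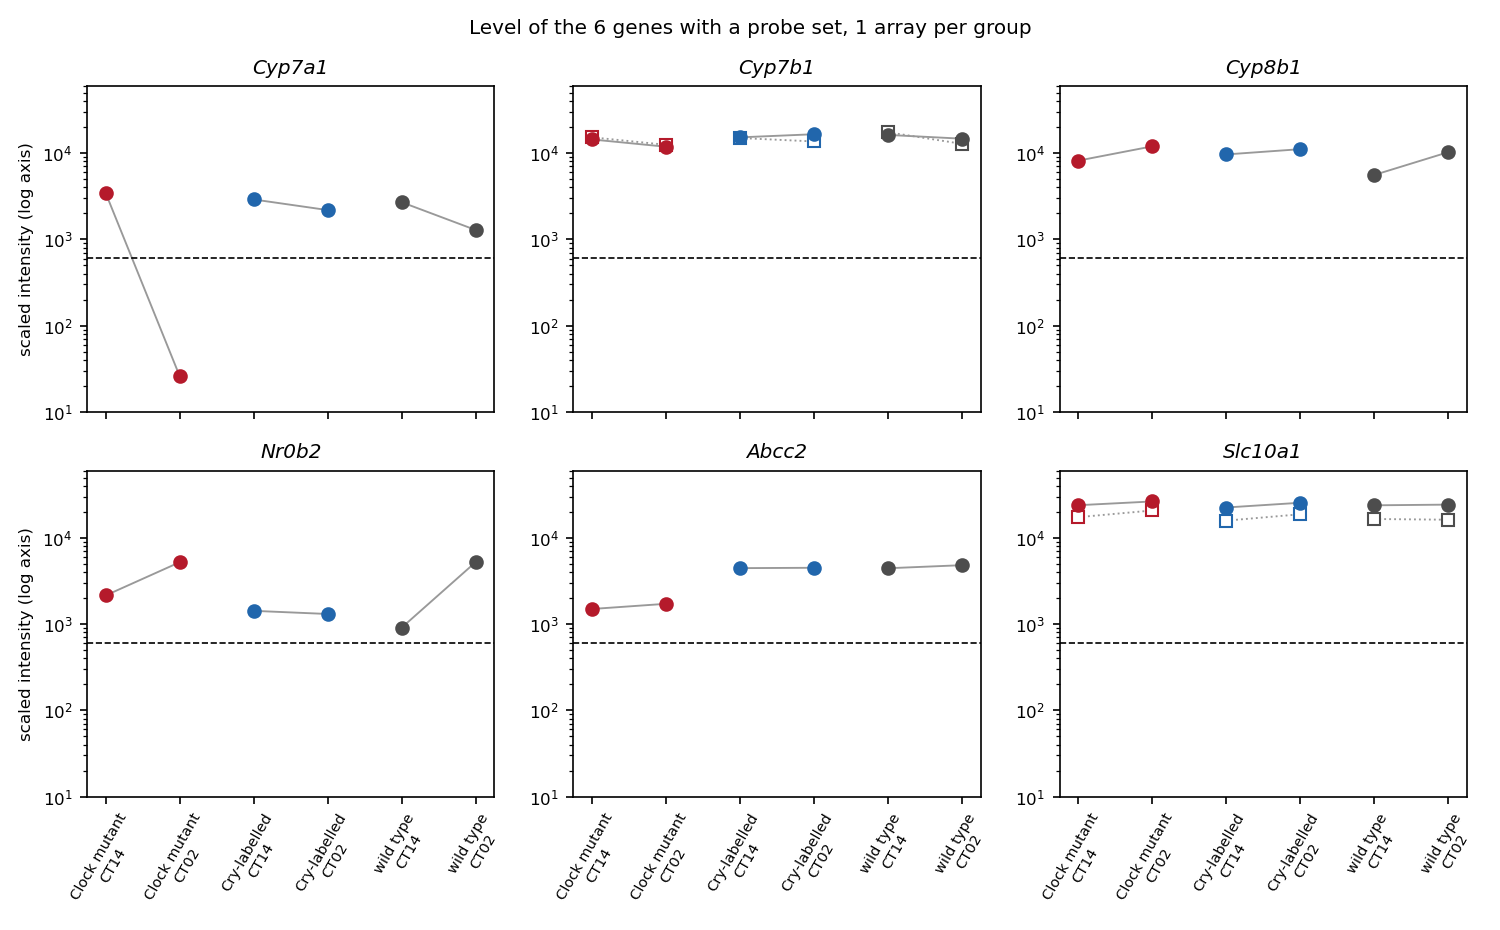
Scaled level (log axis) of each gene on the 6 arrays, Clock mutant, Cry-labelled and wild type, each at CT14 and CT02. Filled circles are the probe set that represents a gene, open squares a second probe set of Cyp7b1 and Slc10a1, and the dashed line is the floor of 606 units. Abcc2 lies at 1497 and 1719 units on the Clock mutant arrays and between 4442 and 4822 units on the other 4.

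Cyp7a1 was measured by 1 probe set (99404_at). It had 3461 units at CT14 and 26 units at CT02 in the Clock mutant, 2901 and 2185 units on the Cry-labelled arrays, and 2692 and 1282 units in wild type. CT14 was above CT02 in all 3 genotypes, by 2.10-fold in wild type (log2 ratio 1.07), by at least 5.71-fold in the Clock mutant (log2 ratio at least 2.51) and by 1.33-fold on the Cry-labelled arrays (log2 ratio 0.41). The Clock mutant ratio, taken at its bound, was the 7th highest of the 4722 genes with a ratio there. At CT14 the 3 genotypes lay close together, with the Clock mutant 1.29-fold above wild type and the Cry-labelled array 0.11 log2 units above it. At CT02 they lay apart. The Clock mutant was at least 2.12-fold below wild type and the Cry-labelled array 1.70-fold above it. The Clock mutant ratios rest on a single low reading, deposited as 19 against deposited values of 1397 to 3626 on the other 5 arrays.

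Cyp8b1 was measured by 1 probe set (103284_at). It had 8173 units at CT14 and 11972 units at CT02 in the Clock mutant, 9655 and 11111 units on the Cry-labelled arrays, and 5584 and 10262 units in wild type. The wild-type CT14 array was the lowest of the 6. CT14 was below CT02 by 1.84-fold in wild type and 1.46-fold in the Clock mutant. The Clock mutant log2 ratio of -0.55 shrank to -0.05 without scaling and to -0.01 with scaling on hepatocyte markers. The 2 Cry-labelled arrays were 1.15-fold apart in the same direction, which turned round (log2 ratio up to 0.09 in place of -0.20) without scaling and with scaling on hepatocyte markers. At CT14 the level in the Clock mutant was 1.46-fold and on the Cry-labelled array 1.73-fold above wild type. At CT02 the log2 ratios to wild type were 0.22 and 0.11, with the sign turned under the same 2 scalings.

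Cyp7b1 had 2 probe sets, and on both it varied little. The brighter one (92898_at) had 14410 units at CT14 and 11863 units at CT02 in the Clock mutant, 15231 and 16557 units on the Cry-labelled arrays, and 16257 and 14696 units in wild type. Its ratios stayed between -0.31 and 0.28 in all 7 comparisons, and the second probe set (161345_f_at) differed from it by 0.01 to 0.30 log2 units, with opposite signs in the time comparison of the Cry-labelled arrays (-0.12 and 0.13). The signs of 3 of the 7 ratios changed with the scaling. Over the 6 arrays its range was narrower than that of most genes, since 17.6% of the kept genes spanned less.

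Nr0b2 showed the widest measured difference of the group. Its probe set (97123_at) had 2148 units at CT14 and 5217 units at CT02 in the Clock mutant, 1425 and 1310 units on the Cry-labelled arrays, and 913 and 5260 units in wild type. In wild type CT14 was 5.76-fold below CT02 (log2 ratio -2.53), the 2nd lowest ratio of 4749 genes. In the Clock mutant CT14 was 2.43-fold below CT02 (log2 ratio -1.28), the 80th lowest of 4722 genes. This ratio fell short of 2-fold without scaling (log2 ratio -0.78) and with scaling on hepatocyte markers (-0.74), and the cause was not tested. The 2 Cry-labelled arrays differed by 1.09-fold.

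Between genotypes, the position of Nr0b2 depended on the time. At CT02 the Cry-labelled array was 4.02-fold below wild type (log2 ratio -2.01), the 18th lowest of 4750 genes. The Clock mutant was level with wild type there (log2 ratio -0.01), but below it without scaling (-0.57) and with scaling on hepatocyte markers (-0.24). At CT14 both mutants were above wild type, the Clock mutant by 2.35-fold (log2 ratio 1.23) and the Cry-labelled array by 1.56-fold (log2 ratio 0.64). The 2 arrays with the highest Nr0b2, Clock mutant CT02 (5217 units) and wild-type CT02 (5260 units), were also the 2 with the lowest Cyp7a1 (26 and 1282 units). The order was not inverse on the rest. The Clock mutant CT14 array came next in Nr0b2 (2148 units) and had the highest Cyp7a1 (3461 units). The wild-type CT14 array had the lowest Nr0b2 (913 units) and 2692 units of Cyp7a1. A relation between the 2 genes was not tested. Beside the Cry-labelled CT02 value, the 10 macrophage markers summed to 44847 units on that array and 24789 to 31821 units on the other 5. On each array 8 to 10 of the 10 were above the floor. The 8 hepatocyte markers summed to 144722 units on the Cry-labelled CT02 array and 134010 units on the wild-type CT02 array. The part of these differences in the result was not tested.

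RefSeq promoter windows (GRCm38.p6, 250 bases before to 50 after the start of transcription) were listed for 6 of the 8 genes, with 2 windows for Slc10a1. They were searched on both strands for an E-box (CACGTG), its variant (CACGTT), a D-box (TTANNTAA), a nuclear receptor half-site (AGGTCA) and an HNF1 half-site (GTTAAT). The Nr0b2 window, chr4:133553126-133553425 on the plus strand, is shown because it was the only one of the 7 with an E-box, the site bound by the CLOCK and BMAL1 pair. The E-box, in capitals, lies 195 to 190 bases before the start. Of all 32851 windows of this length, 7.15% held the same letters.
Nr0b2: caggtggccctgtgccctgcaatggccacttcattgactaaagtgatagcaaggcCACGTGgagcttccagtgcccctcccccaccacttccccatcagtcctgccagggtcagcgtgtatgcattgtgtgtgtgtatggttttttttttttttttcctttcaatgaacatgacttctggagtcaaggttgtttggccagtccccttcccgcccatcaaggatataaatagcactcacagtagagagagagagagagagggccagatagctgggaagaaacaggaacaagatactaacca

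Abcc2 differed far more between genotypes than between times. Its probe set (95283_at) had 1497 units at CT14 and 1719 units at CT02 in the Clock mutant, 4456 and 4497 units on the Cry-labelled arrays, and 4442 and 4822 units in wild type. Both Clock mutant arrays lay below all 4 others. The Clock mutant was 2.97-fold below wild type at CT14 (log2 ratio -1.57, the 72nd lowest of 4783 genes) and 2.80-fold below it at CT02 (log2 ratio -1.49, the 120th lowest of 4785 genes). Under the 11 alternatives that recomputed them, the first stayed between -1.65 and -1.30 and the second between -2.04 and -1.40. The Cry-labelled arrays differed from wild type by -0.10 log2 units at CT02 and 0.00 at CT14, and the time ratios were -0.20, -0.01 and -0.12 in the Clock mutant, on the Cry-labelled arrays and in wild type, with the sign of the mutant ratios turned under 2 scalings.

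The Abcc2 window is shown beside that of Cyp8b1. The largest log2 ratio of Cyp8b1 was that of the times in wild type (-0.88). Its ratio of Cry-labelled to wild type at CT14 was nearly as large (0.79). The Abcc2 window, chr19:43782058-43782357 on the plus strand, held the half-site AGGTCA (in capitals) 49 to 44 bases before the start. The same letters were in the Abcb11 window, in 1 of the 2 Slc10a1 windows and in 16.3% of all windows. The Cyp8b1 window, chr9:121916256-121916555 on the minus strand, held none of the 5 motifs. Shares of all windows were 4.68% for the E-box variant, 6% for the D-box and 7.1% for the HNF1 half-site.
Abcc2: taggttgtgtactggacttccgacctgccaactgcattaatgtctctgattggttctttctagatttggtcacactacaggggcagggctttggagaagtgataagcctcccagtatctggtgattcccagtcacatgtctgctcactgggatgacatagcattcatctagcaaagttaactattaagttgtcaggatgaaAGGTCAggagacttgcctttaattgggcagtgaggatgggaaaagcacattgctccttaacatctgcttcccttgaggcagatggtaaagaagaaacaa
Cyp8b1: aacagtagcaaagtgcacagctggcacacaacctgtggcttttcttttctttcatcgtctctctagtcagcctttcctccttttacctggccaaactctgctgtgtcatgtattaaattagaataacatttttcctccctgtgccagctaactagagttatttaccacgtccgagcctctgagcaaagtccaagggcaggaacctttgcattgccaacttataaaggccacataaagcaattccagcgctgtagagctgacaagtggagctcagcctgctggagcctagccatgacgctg

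Slc10a1 was the steadiest of the genes. The probe set that represents it (100341_g_at) had 23895 units at CT14 and 26416 units at CT02 in the Clock mutant, 22484 and 25520 units on the Cry-labelled arrays, and 23835 and 24284 units in wild type. Only 1.42% of the kept genes had a narrower range over the 6 arrays, and all 7 ratios lay between -0.18 and 0.12, of which 6 changed sign with the scaling. A second probe set (100339_at) had 15832 to 20762 units and differed from the first by 0.02 to 0.23 log2 units in its ratios. The third (100340_at) was under the floor on all 6 arrays, at 82 to 353 units.

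**Figure D2:**
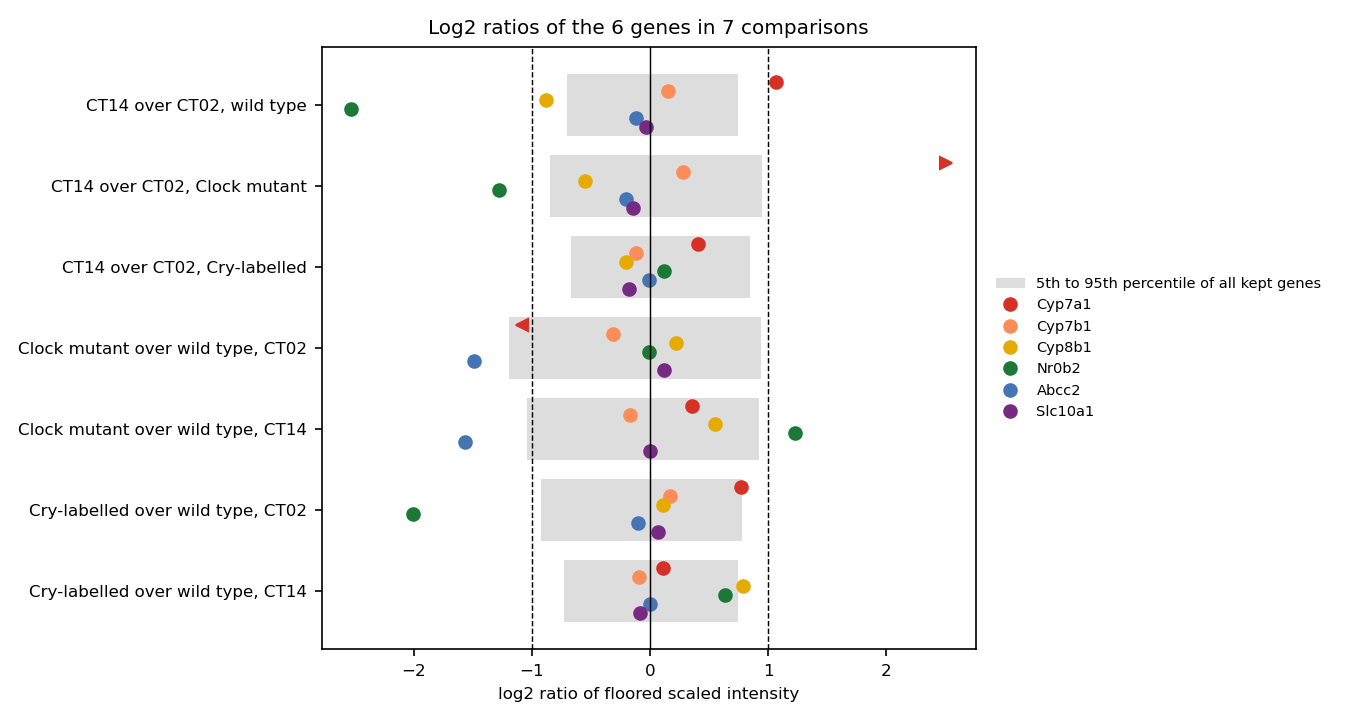
Log2 ratio of each gene in the 7 comparisons, 3 of CT14 over CT02 and 4 of a mutant over wild type. Circles are measured ratios, triangles bounds, the grey band the 5th to 95th percentile of the kept genes and the dashed lines 2-fold. Points outside the band include Nr0b2 (-2.53) in the wild-type time comparison and Cyp7a1 (at least 2.51) in that of the Clock mutant. Abcc2 (-1.57 and -1.49) in both comparisons of the Clock mutant with wild type, and further points not named here, also lie outside it.

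The 6 genes did not move as a set. In the wild-type time comparison 1 of them was at least 2-fold higher at CT14, as were 2.48% of the kept genes, and 1 was at least 2-fold lower, as were 2.09%. In the Clock mutant time comparison 1 was at least 2-fold higher, against 4.31% of the kept genes, and 1 lower, against 3.43%. On the Cry-labelled arrays 0 of 6 were 2-fold apart between the times, against 3.53% of the kept genes higher and 2.02% lower. The medians of the 6 ratios were -0.07, -0.17 and -0.07 in wild type, Clock mutant and Cry-labelled arrays, against medians of all kept genes within 0.01 of 0.

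Between the Clock mutant and wild type at CT02, 0 of 6 were at least 2-fold higher (4.25% of the kept genes) and 2 were lower (7.51%), namely Abcc2 and Cyp7a1. At CT14, 1 was higher (4.13%), Nr0b2, and 1 lower (5.64%), Abcc2. Between Cry-labelled and wild-type arrays at CT02, 0 were higher (2.73%) and 1 was lower (3.96%), Nr0b2. At CT14, 0 of 6 were 2-fold apart (2.46% of the kept genes higher and 2.27% lower). The medians of the 6 ratios were between -0.16 and 0.18 in these 4 comparisons. Counts of 1 or 2 among 6 genes say which genes differed and nothing of the group as a whole.

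Whether the time ratio itself differed between genotypes was described by subtraction, mutant minus wild type. Both subtractions use the same wild-type arrays. For the Clock mutant, the difference was at least 1.44 log2 units for Cyp7a1 and 1.25 for Nr0b2, both above the 95th percentile of the kept genes (1.19). It was 0.33 for Cyp8b1 and between -0.12 and 0.13 for Cyp7b1, Abcc2 and Slc10a1. The signs for Abcc2 and Slc10a1 changed with the scaling. Among the scalings, that for Cyp7b1 turned (-0.17) only without the Cry-labelled CT02 array, where its second probe set came to represent it. For the Cry-labelled arrays the difference was 2.65 for Nr0b2, the 8th highest of 4662 genes. It was 0.68 for Cyp8b1 and -0.66 for Cyp7a1, both inside the 5th to 95th percentile (-0.96 to 1.08). These differences were not tested.

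**Figure D3:**
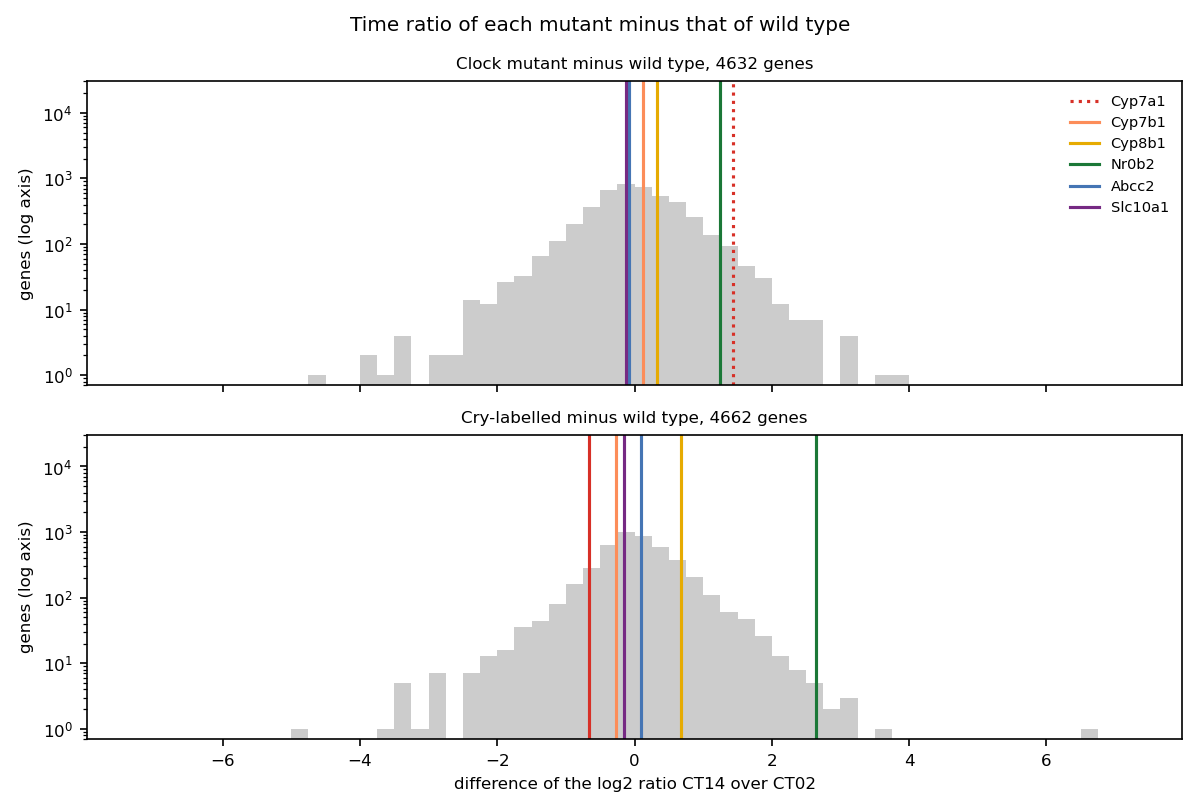
Difference of the log2 time ratio, mutant minus wild type, as a histogram of all kept genes (log axis of gene counts) with vertical lines at the 6 genes, for the Clock mutant and the Cry-labelled arrays. The dotted line is a bound. Nr0b2 lies at 1.25 in the Clock mutant and at 2.65 on the Cry-labelled arrays, and Cyp7a1 at 1.44 or more and at -0.66.

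The regulators known to act on these genes were followed as a list of 22, of which 18 were on the array and 13 were kept. Their median ratio stayed between -0.43 and 0.26 over the 7 comparisons. Of their 91 ratios, 13 (14.3%) were at least 2-fold, against 7.26% of the ratios of all kept genes. The ratios share arrays, so they are not separate observations. FXR (Nr1h4), the bile acid receptor upstream of Nr0b2, had 9318 and 10711 units at CT14 and CT02 in the Clock mutant, 4910 and 4547 units on the Cry-labelled arrays, and 7429 and 4031 units in wild type. It was 2.66-fold above wild type in the Clock mutant at CT02, where Nr0b2 was level with wild type under the same scaling.

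Hnf4a, an activator of Cyp7a1 and Cyp8b1, had 5827 and 4086 units at CT14 and CT02 in the Clock mutant, 4154 and 871 units on the Cry-labelled arrays, and 6563 and 4042 units in wild type. Its single low value, on the Cry-labelled CT02 array, was 4.64-fold below wild type and gave a 4.77-fold higher value at CT14 than at CT02 within the Cry-labelled pair. Cyp7a1 read 2185 units and Cyp8b1 11111 units on that array, and a link to Hnf4a was not tested. The array also had the highest ratio of 3′ to 5′ control probe sets of Gapdh (2.37). Foxa2, a liver transcription factor, was at least 3.53-fold higher at CT14 than at CT02 in the Clock mutant. Its level was 2.86-fold (Clock mutant) and 3.18-fold (Cry-labelled) above wild type at CT14 and at least 3.05-fold above it on the Cry-labelled array at CT02.

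Among clock output factors, Dbp, an activator that binds the D-box, was 3.01-fold above wild type at CT14 and at least 3.03-fold above it at CT02 on the Cry-labelled arrays, and at or under the floor on both Clock mutant arrays. Bhlhe40, an E-box repressor, was 8.03-fold above wild type on the Cry-labelled array at CT02 and 5.01-fold higher at CT14 than at CT02 in wild type. Nr1d1 (REV-ERB-alpha), a repressor known to act on Nr0b2, was 2.18-fold below wild type in the Clock mutant at CT02. Nfil3, the D-box repressor, was 2.27-fold lower at CT14 than at CT02 in the Clock mutant.

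Of the other enzymes of the alternative route and side-chain cleavage, 8 of 17 were kept and gave 5 ratios of at least 2-fold among 56 (8.93%), against 7.26% of the ratios of all kept genes over the 7 comparisons. Of those 5, 4 were of Amacr, the racemase of side-chain shortening. Amacr had 6495 and 2582 units at CT14 and CT02 in the Clock mutant, 2242 and 6020 units on the Cry-labelled arrays, and 5669 and 5718 units in wild type. It was thus 2.52-fold higher at CT14 in the Clock mutant and 2.69-fold lower at CT14 on the Cry-labelled arrays, with wild type level. The remaining ratio was that of Star, the mitochondrial cholesterol carrier, at least 2.19-fold below wild type on the Cry-labelled array at CT14.

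No conjugation or sulphation enzyme (4 kept of 7), other hepatic bile acid or bilirubin transporter (4 kept of 11) or canalicular lipid transporter (2 kept of 8) was 2-fold apart in any of the 7 comparisons. With so few genes, and 7.26% of all ratios past 2-fold, counts of 0 set these lists apart from no others. Their list medians stayed between -0.37 and 0.30. Abcc3, the basolateral relative of Abcc2, had 13838 and 15946 units at CT14 and CT02 in the Clock mutant, 9216 and 13933 units on the Cry-labelled arrays, and 12450 and 14542 units in wild type. Of 4 kept genes of cholesterol supply and esterification, only Lipa, the lysosomal lipase, passed 2-fold, at 2.03-fold above wild type in the Clock mutant at CT14.

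**Figure D4:**
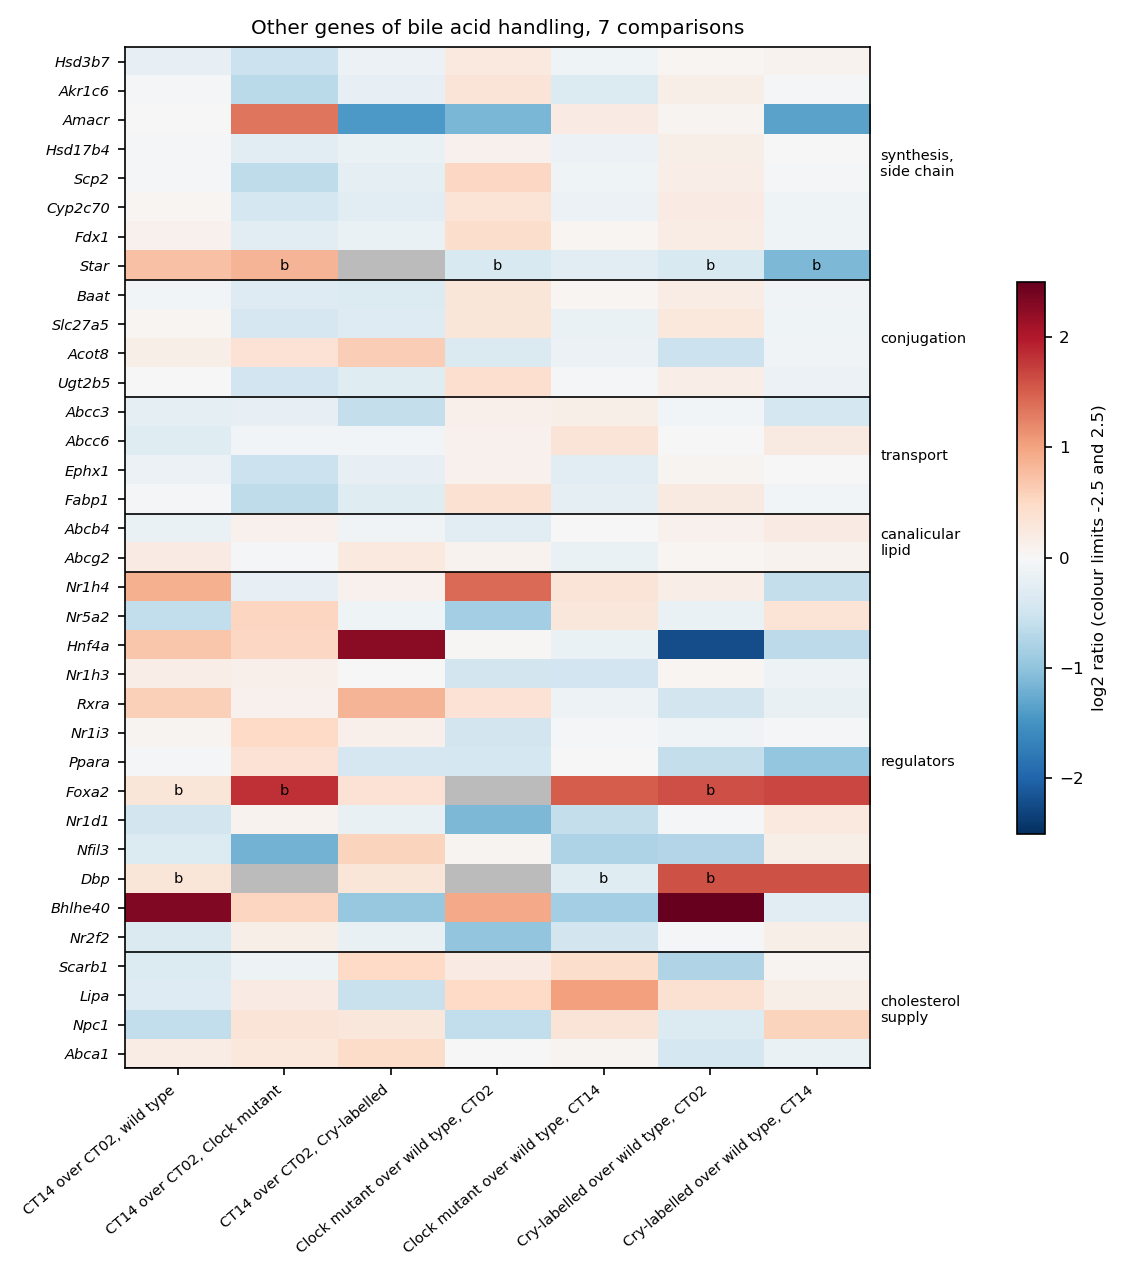
Log2 ratios of the kept genes on the lists of other bile acid pathway genes (down the page) in the 7 comparisons (across). The 6 genes themselves are not drawn. Red is higher and blue lower, b marks a bound, and grey marks ratios with both values at the floor. The colour scale ends at 2.5 in either direction, so that Bhlhe40 on the Cry-labelled array at CT02 (3.01) takes the end colour.

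The genes most like each of the 6 over the arrays were found by the Pearson correlation of log2 levels over 6 arrays, which share scaling and hold 1 sample per group, so that r is a description and high values are common. For Abcc2 they were Dynll2 (r = 0.997), Gfra3 (0.993) and Pcx (0.992), and 168 of the 3897 genes compared reached 0.9. Dynll2, a dynein light chain, had 2042 and 2386 units in the Clock mutant at CT14 and CT02, against 13651 and 15163 units in wild type. For Nr0b2 they were Carhsp1 (0.965), Polr2e (0.951) and Anapc11 (0.948), with 13 genes at 0.9 or more. For Cyp8b1 they were Pter (0.976), Fbxo3 (0.966) and Traf2 (0.963), with 24.

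For Cyp7a1 they were Lmo4 (0.997), Ddx3x (0.985) and Tdp2 (0.984). Here the Clock mutant CT02 value of Cyp7a1 was set to the floor, so these r values and their order depend on the floor. For Cyp7b1 they were Taf10 (0.994), Dhx9 (0.986) and Skap2 (0.986), and for Slc10a1 Tnfaip2 (0.995), Gstp1 (0.987) and Cox8c (0.982), both over narrow ranges.

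The arrays themselves differed in ways that touch these values. Hepatocyte markers were above the floor in 8 of 8 cases on every array, with summed levels of 105710 to 148008 units, and the cholangiocyte markers Krt19, Krt7 and Cldn7 read below 0 on all 6. The summed level of the 8 cholangiocyte markers, with readings below 0 counted as 0, was 6758 units with 4 of 8 above the floor on the Clock mutant CT02 array, and 2839 to 4245 units with 1 to 3 of 8 above it on the other 5. Cftr (1702 units) and Cldn4 (1373 units) were highest on that array. In bulk liver, fewer cells of a type and less RNA per cell cannot be told apart. The mean deposited intensity was 1637 on the Clock mutant CT02 array, the one with the low Cyp7a1 reading, and 2182 to 2486 on the other 5. The ratio of 3′ to 5′ control probe sets of Actb was 2.68 on that array, 1.70 on the Cry-labelled CT02 array and 0.84 to 1.15 on the rest, and that of Gapdh was 2.37 on the Cry-labelled CT02 array and 0.56 to 0.72 on the rest. A control for 18S RNA read 15787 and 15214 units on the Clock mutant arrays, where Abcc2 was low, and 1395 to 8625 units on the other 4. The part of these differences in the results was not tested.

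The targeted genes did not check the labels. Cry2 read 1344 and 1185 units at CT14 and CT02 on the Cry-labelled arrays, against 2256 and 1215 units in wild type, and the one Cry1 probe set above the floor read 4718 and 3845 units, against 2723 and 1833 units in wild type. Where these probe sets lie relative to the deletions was not stated in the sources used here, and the arrays are therefore called Cry-labelled. Clock read 2069 and 1640 units in the Clock mutant, against 1552 and 2430 units in wild type.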

How the data were processed

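The values the authors deposited are intensities, 1 whole number for each probe set on each array, some of them below 0. The software, background correction and genome build were not given in the sources used here. Groups were taken from the sample titles. Of 12488 probe sets, 66 were controls, and 10855 carried 1 gene symbol in the platform annotation, 396 several and 1237 none. Only those with 1 symbol were named.

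Each array was scaled by its median ratio to the mean of the arrays over 6065 probe sets. The floor was the median of all scaled values (606 units). The brightest probe set represented a gene, and genes with a mean of at least the floor were kept (4844). A gene was counted as 2-fold apart at a log2 ratio of at least 1 in size. No test was made, since each group had 1 array. An additive model of genotype and time, which would take their interaction as error, was not fitted. Depth does not apply to arrays, whose number limits the precision. The computation was tested on simulated data. Python 3.11.15, numpy 2.4.6, pandas 2.3.3, statsmodels 0.14.6 and matplotlib 3.10.9 were used.

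The members and the 12 gene lists were chosen with earlier results of these data known. The genes named were all members, list genes at least 2-fold apart in a comparison (at most 4 per list and comparison) and, per member, the 3 kept genes above the floor on all 6 arrays with the highest correlation. Nr5a2, Abcc3, Krt19, Krt7, Cldn7, Vil1 and Slc10a2 were named for their role, and Cldn4 after its values were seen. Alternatives covered scaling, floor, filter, choice of probe set and fold threshold.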

Additional observations from a re-analysis of the deposited data

Results flagged for a closer look

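For 3 results the log2 ratio of 1 contrast was above 0 and that of the other below 0, although for Nr0b2 one of the ratios was close to 0 each time. None of these differences was tested, as each group had 1 array.

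Nr0b2 was level between the times on the Cry-labelled arrays (log2 ratio of CT14 over CT02 0.12) and lower at CT14 in wild type (-2.53), a difference of 2.65. The Clock mutant stood above wild type in Cyp7a1 at CT14 (log2 ratio 0.36) and below it at CT02 (-1.08, a bound), a difference of at least 1.44. For Nr0b2 the Clock mutant stood above wild type at CT14 (1.23) and level with it at CT02 (-0.01), a difference of 1.25. The CT02 value lay between -0.57 and 0.07 over the alternative scalings, so its sign changed.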

How the results depend on the processing

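No alternative reversed a 2-fold ratio among the members. Of the members' counts of 2-fold genes, 103 stayed within 1.5 times the count reported and 14 did not. With a 3-fold threshold the count became 1 in the time comparisons of the Clock mutant and wild type (2 reported in each), 0 in the Clock mutant against wild type at CT02 and at CT14 (2 in each), and 0 for the differences of the time ratio in the Clock mutant (2). With a 1.5-fold threshold it became 2 for Cry-labelled against wild-type arrays at CT02 (1) and at CT14 (0), and 3 for the differences of the time ratio on the Cry-labelled arrays (1). A filter at the 75th percentile dropped Cyp7a1 and left 1 in the time comparisons of the Clock mutant and wild type, in the Clock mutant against wild type at CT02 and in the differences for the Clock mutant. Values as deposited and scaling on hepatocyte markers left 1 in the Clock mutant time comparison, where Nr0b2 passed 2-fold under 9 of 11 alternatives.

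A floor at the 25th percentile raised the bounds of Cyp7a1 to 6.91 log2 units (Clock mutant, CT14 over CT02), -5.48 (Clock mutant at CT02, over wild type) and 5.84 (difference of the time ratio), so their size is set by the floor. Values as deposited and scaling on hepatocyte markers moved the median of all genes to 0.47 and 0.53 in the Clock mutant time comparison and to -0.53 and -0.22 in the Clock mutant against wild type at CT02. The kept genes past 2-fold were then 711 and 872, against 375, in the first, of which 93.1% and 93.8% were higher, against 55.7%. In the second they were 1032 and 645, against 570, with 5.62% and 20% higher, against 36.1%. The higher share also moved in the Cry-labelled time comparison (81.9% and 86.9%, against 63.6%), in Cry-labelled against wild-type arrays at CT02 (28.6% and 22.3%, against 40.7%) and, with hepatocyte markers, in the Clock mutant against wild type at CT14 (70.1%, against 42.3%). The cause was not tested. No paired analysis was possible because each group had 1 array and the labels carry no replicate numbers.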

Other observations

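Genes of lipid uptake on the small intestine marker list, some of which liver also expresses, differed between genotypes. Among the 3 kept genes, 7 of 12 ratios of a mutant to wild type were at least 2-fold. Over all 7 comparisons 9 of 21 ratios were (42.9%), against 7.26% of the ratios of all kept genes. These ratios come from 3 genes and shared arrays, so they are not separate observations. The list medians were -1.33 to 0.46. Apoa4, an apolipoprotein, had 1436 and 3355 units at CT14 and CT02 in the Clock mutant, 15196 and 10676 units on the Cry-labelled arrays, and 4006 and 4024 units in wild type. Fabp2, a fatty acid binding protein, had 11855 and 14197 units in the Clock mutant, 3425 and 3654 units on the Cry-labelled arrays, and 8866 and 9201 units in wild type.

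Fabp6, an ileal bile acid binding protein known as an FXR target, had 2907 and 2699 units at CT14 and CT02 in the Clock mutant, 732 and 582 units on the Cry-labelled arrays, and 545 and 1962 units in wild type. Like Nr0b2, it was lower at CT14 than at CT02 in wild type (at least 3.24-fold). In the Clock mutant it was not lower at CT14, while Nr0b2 was, by 2.43-fold. Fabp6 was at least 4.79-fold above wild type in the Clock mutant at CT14 and at least 3.24-fold below it on the Cry-labelled array at CT02. A relation between the 2 genes was not tested. The defining intestinal gene Vil1 read below 0 on all 6 arrays, and Slc10a2 read 8 to 64 units.

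Of the cell type lists, hepatocyte markers had medians between -0.48 and 0.20 over the 7 comparisons and macrophage markers between -0.68 and 0.58. Of the macrophage ratios, 10 of 70 were at least 2-fold (14.3%), against 7.26% of the ratios of all kept genes. Endothelial markers lay between -0.61 and 0.66, stellate and fibroblast markers between -0.58 and 0.23, and the 2 kept cholangiocyte markers between -0.76 and 0.68. On the Cry-labelled array at CT02, 9 of the 10 macrophage markers were above wild type and 1 was below it. At least 2-fold higher were 3 (2.73% of the kept genes), and 1 was at least 2-fold lower (3.96%). Marco, a macrophage receptor, was at least 4.67-fold above wild type there. The 1 marker below was C1qa, another macrophage gene, by 3.17-fold.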
